A study of Homo sapiens with 6 samples.

Results

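The genes described here encode the proteins of tight junctions, desmosomes and gap junctions. They were taken from the count table by symbol, with a rule that holds no measured value but was written with earlier results of these data known: 65 of the 61155 symbols in the table belong to the claudins, the junctional adhesion molecules, MARVELD2 and MARVELD3, the ZO proteins, CGN, the desmogleins, desmocollins, desmoplakin and plakophilins, the GJA, GJB and GJC connexins, or the pannexins. RNA sequencing had been carried out on undifferentiated H7 cells, a line of human embryonic stem cells (hESCs), with 3 wild-type (WT) libraries and 3 S6K1-/- libraries. S6K1, encoded by RPS6KB1, is a kinase downstream of mTOR, and it had been knocked out with CRISPR/Cas9 guides against a pair of its exons. Both groups were grown without feeder cells on Matrigel in TeSR-E8 medium and received no differentiation treatment. All S6K1-/- libraries came from clone #1, so that the genotype and the clone cannot be told apart. The labels call the S6K1-/- samples a knockdown and date both groups to week 5, whereas the methods describe a knockout and undifferentiated cells. Nothing states that libraries of a group came from separate cultures, so that the p-values measure the spread between these libraries, which may be technical.

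Tight junctions seal the space between epithelial cells near their apical side. Claudins form the paracellular barrier and its channels, JAM and MARVEL proteins accompany them in the membrane, and the ZO proteins and cingulin tie them to actin. Desmosomes join cells through desmosomal cadherins, which plakophilins and desmoplakin connect to intermediate filaments. Gap junctions are channels of connexins that couple the cytoplasm of neighbouring cells, and pannexins are related proteins that form single-membrane channels. Undifferentiated hESCs grow as an epithelial sheet and carry these junctions.

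The targeted gene was examined first. For RPS6KB1, 831, 791 and 777 reads were counted in WT and 464, 464 and 438 in S6K1-/- libraries. All S6K1-/- values lay below all WT values, with a log2 fold change (S6K1-/- minus WT) of -0.75 (SE 0.057, Benjamini-Hochberg adjusted p = 2.52e-07, edgeR's quasi-likelihood test), whereas its paralog RPS6KB2 gave 0.07 (adjusted p = 0.54). The transcript of the targeted gene was therefore reduced and not absent. Library totals ranged from 21896698 to 24473013 counts. Genes of the mitochondrial genome took 8.63% to 8.78% of the counts in WT, 9.51% and 9.74% in S6K1-/- replicates 1 and 2 and 8.54% in S6K1-/- replicate 3, and the part of this difference in the results was not tested. Of 19521 genes tested, 774 passed an adjusted p of 0.001, the threshold used throughout. Among 8 markers of undifferentiated stem cells, DNMT3B fell and PRDM14 rose, while POU5F1 (log2 fold change -0.04, adjusted p = 0.733), SOX2 and NANOG did not pass.

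Junction transcripts that passed the threshold in edgeR's quasi-likelihood test were all lower in S6K1-/- hESCs, whereas DSP (desmoplakin) also passed, and was higher, in the DESeq2 Wald test and with the replicate number as a block. Of the 65 genes, 41 had enough counts to be tested, and 5 of these fell while 0 rose. The 5 were the claudins CLDN3 and CLDN7, the adhesion molecule JAM2 and the plakophilins PKP1 and PKP3. They make up 12.2% of the genes tested, where 3.96% of all tested genes passed this threshold, 2.54% lower and 1.42% higher. PKP1, and GJA5 among the connexins, passed the filter on low counts mainly through the WT group, so that a gene of this kind had to be lower in S6K1-/- hESCs to be tested. With at least 10 counts required in every library, PKP1 was not tested and 4 of 37 junction genes fell, against 2.35% of all genes tested. At an adjusted p of 0.05, 9 were lower and 1 was higher, against 8.31% lower and 5.47% higher among all tested genes. The 3 WT and 3 S6K1-/- values did not overlap for 15 genes that were lower and 6 that were higher in S6K1-/- hESCs, whereas 16.7% of all tested genes were lower and 14% higher without overlap. The median log2 fold change of the 41 genes was -0.07 beside -0.0024 for all genes, and 29 of the 41 lay below 0. Their median absolute log2 fold change of 0.11 was the same as that of all tested genes, 0.11. In bulk libraries fewer cells of a type and less RNA per cell cannot be told apart. The number of lower genes was not equally stable, since it was 3 without WT replicate 1, 3 without WT replicate 2 and 2 without S6K1-/- replicate 2, and CLDN3 and CLDN7 were called in each of these fits.

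**Figure D1:**
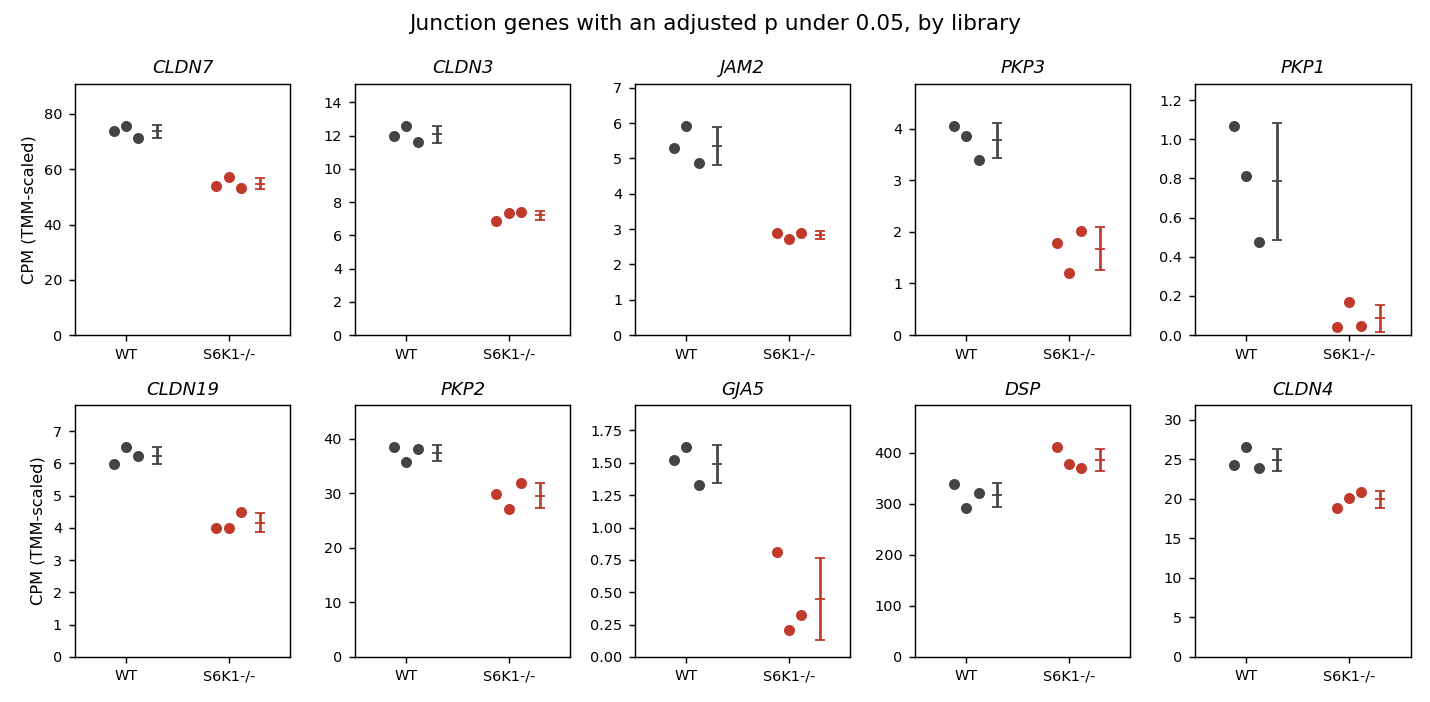
Normalised level in CPM (counts scaled to library size, with an axis of its own in each panel) of the junction genes with an adjusted p under 0.05, with 1 point per library for WT and S6K1-/- hESCs and the group mean with its SD as a bar. In every panel the groups do not overlap, and only DSP lies higher in S6K1-/- hESCs.

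Claudins were the largest family, with 24 symbols, of which 15 were tested. CLDN3 and CLDN7 fell, CLDN4 and CLDN19 lay between the adjusted p values of 0.001 and 0.05 and were lower, and 0 of the 15 were higher at either threshold. These are 13.3% lower at 0.001 and 26.7% at 0.05, against 2.54% and 8.31% of all tested genes. For 6 claudins the S6K1-/- values lay below the WT values without overlap, and for 0 above, against 16.7% and 14% of all tested genes. The median log2 fold change of the tested claudins was -0.11.

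The promoters of the members that fell are shown as the 250 bases before the start given for each gene in the sequence table, where it held them, together with that of CLDN4, which neighbours CLDN3. JAM2 and PKP3 had no entry. These starts can differ from the outer ends of the gene models behind the lengths and distances given here, and the CLDN4 and CLDN7 windows and the end of the PKP1 window lie within those models. The sequences are from RefSeq, build GRCh38.p14, 5′ to 3′ on the strand of the gene, and capitals mark matches on either strand to GGGCGG (the GC box) or TGANTCA (the AP-1 motif). CLDN3 is at chr7:73770271-73770520 (minus strand), CLDN4 at chr7:73830746-73830995 (plus strand), CLDN7 at chr17:7263214-7263463 (minus strand) and PKP1 at chr1:201283256-201283505 (plus strand).
CLDN3: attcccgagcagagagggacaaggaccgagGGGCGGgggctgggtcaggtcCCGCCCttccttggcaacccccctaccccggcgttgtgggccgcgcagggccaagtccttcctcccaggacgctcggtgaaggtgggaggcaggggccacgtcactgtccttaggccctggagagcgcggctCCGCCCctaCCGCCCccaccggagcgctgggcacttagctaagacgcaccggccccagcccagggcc
CLDN4: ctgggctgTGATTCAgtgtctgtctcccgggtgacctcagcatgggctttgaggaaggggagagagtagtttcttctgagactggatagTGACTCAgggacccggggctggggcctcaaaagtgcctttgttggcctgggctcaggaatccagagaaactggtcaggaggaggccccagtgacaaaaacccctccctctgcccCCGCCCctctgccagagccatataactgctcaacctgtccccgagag
CLDN7: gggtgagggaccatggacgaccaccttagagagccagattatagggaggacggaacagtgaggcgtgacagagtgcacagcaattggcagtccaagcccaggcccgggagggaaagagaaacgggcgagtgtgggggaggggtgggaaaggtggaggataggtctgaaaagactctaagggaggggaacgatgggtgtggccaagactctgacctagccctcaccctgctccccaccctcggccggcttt
PKP1: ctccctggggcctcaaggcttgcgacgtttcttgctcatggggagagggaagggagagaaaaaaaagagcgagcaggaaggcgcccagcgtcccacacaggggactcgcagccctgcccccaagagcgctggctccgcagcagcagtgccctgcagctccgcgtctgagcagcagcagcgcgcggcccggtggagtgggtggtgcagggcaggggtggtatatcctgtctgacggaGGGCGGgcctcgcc
The CLDN3 window held 4 GC boxes and had a GC content of 71.6%. The CLDN4 window held 2 AP-1 matches and 1 GC box. The PKP1 window held 1 GC box, and the CLDN7 window held no match to any motif searched. The GC box was present in 42.6% of all 35116 promoters and in 19 of the 42 junction gene promoters in the table, and AP-1 in 6.57% and in 5 of 42. The Grainyhead-like motif AACCGGTT was present in 0.117% and in 0 of 42, the TEAD motif CATTCC in 11.9% and in 3 of 42, and the E-box CAGGTG in 17.5% and in 8 of 42. Among the promoters of tested genes the GC box was present in 65.6% and AP-1 in 3.93%. A match is a description of letters and not of binding.

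CLDN7, a claudin of many epithelia that also binds EPCAM, had 1803, 1867 and 1656 counts in WT and 1271, 1370 and 1161 in S6K1-/- libraries. Every S6K1-/- library lay below every WT library, at 54.8 ± 2.05 CPM against 73.7 ± 2.34 (SD, n = 3). CLDN7 fell by 0.43 on the log2 scale (SE 0.045, adjusted p = 9.63e-06 in edgeR's quasi-likelihood test) and passed in all 6 fits that left out a library. Another protein-coding gene model on the same strand shares 10.8% of its exonic bases, and reads from there cannot be assigned.

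CLDN3, a barrier-forming claudin, had 293, 309 and 270 counts in WT and 161, 176 and 161 in S6K1-/- libraries. The groups stood well apart, at 12.1 ± 0.474 and 7.19 ± 0.299 CPM (SD, n = 3). CLDN3 fell by 0.75 on the log2 scale (SE 0.082, adjusted p = 1.36e-05 in edgeR's quasi-likelihood test), also in all 6 fits that left out a library. Its neighbour on chromosome 7, CLDN4, whose gene model begins 29.3 kb from that of CLDN3, is likewise a barrier claudin and had 589, 653 and 556 counts in WT and 443, 481 and 455 in S6K1-/- libraries. These groups did not overlap either, yet the log2 fold change of -0.32 (SE 0.066, adjusted p = 0.00403 in edgeR's quasi-likelihood test) missed the threshold. The summed level of CLDN3, CLDN4 and CLDN7 was 110.6 ± 4.13 CPM in WT and 81.9 ± 2.43 in S6K1-/- hESCs (SD, n = 3). These genes were put together after their values were seen, so that their lower sum adds nothing to the single genes.

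CLDN19, known for its role in the kidney tubule and the retinal pigment epithelium, had 146, 160 and 145 counts in WT and 94, 96 and 98 in S6K1-/- libraries. All S6K1-/- counts were under 100 and all WT counts above it. The log2 fold change was -0.58 (SE 0.108, adjusted p = 0.00169 in edgeR's quasi-likelihood test).

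CLDN6, a claudin of pluripotent cells, was by far the most abundant claudin per length. Its level was 303 ± 11.4 CPM per kilobase of exon in WT and 298.2 ± 4.47 in S6K1-/- hESCs (SD, n = 3), from 12292, 13310 and 12462 counts and 12043, 12641 and 11257 counts. These values overlapped, and the log2 fold change was -0.02 (95% CI -0.11 to 0.07, adjusted p = 0.785). CLDN6 made up 80.9 ± 0.547% of the summed claudin level per length in WT and 83.8 ± 0.179% in S6K1-/- hESCs. Summed over all claudins the level was 748.8 ± 25.0 CPM in WT and 707.1 ± 10.3 CPM in S6K1-/- hESCs, and without CLDN6 it was 221.9 ± 6.82 and 188.5 ± 2.79 CPM. The groups did not overlap in either sum.

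Behind CLDN6 in WT hESCs came CLDN7, at 29.6 ± 0.938 CPM per kilobase, then CLDN3 at 9.47 ± 0.372, CLDN12 at 7.48 ± 0.427, CLDN10 at 6.77 ± 0.116 and CLDN4 at 5.29 ± 0.308. By this measure CLDN3 stood above CLDN12 and CLDN10 in WT hESCs. The lengths are unions of all exons of a gene model, 4699 bases for CLDN4 and 6708 for CLDN12. They can exceed the transcript made, so that the order between claudins of like level is uncertain. In S6K1-/- hESCs the level of CLDN3 was 5.65 ± 0.235 CPM per kilobase, below CLDN12 at 7.66 ± 0.273 and CLDN10 at 6.27 ± 0.0436 (SD, n = 3). CLDN12, which lacks the usual PDZ-binding end of claudins, had a log2 fold change of 0.03 (95% CI -0.08 to 0.14), and CLDN10, which forms ion channels, -0.11 (95% CI -0.24 to 0.01). The exons of CLDN10 overlap DZIP1, and those of CLDN12 overlap GTPBP10, CDK14 and PTTG1IP2, so that reads of these genes may be mixed.

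The other tested claudins were lower in level and none passed an adjusted p of 0.05. CLDN11, CLDN22 and CLDN23 had 2.18, 2.14 and 2.08 CPM per kilobase in WT, differences within their SDs of 0.124 to 0.192. CLDN23 had a log2 fold change of -0.31 (adjusted p = 0.119) without overlap of the groups. CLDN22 lies wholly within WWC2 on the opposite strand, and its counts cannot be assigned. Another protein-coding gene model on the same strand shares 15.8% of the exonic bases of CLDN11. CLDN1, a barrier claudin of skin, had a log2 fold change of -0.0011 (95% CI -0.25 to 0.25). CLDN9, next to CLDN6 on chromosome 16, gave -0.48 (adjusted p = 0.212), and CLDN2, CLDN15 and CLDN20 gave -0.10, -0.13 and 0.21. Of the 9 claudins not tested, CLDN8, CLDN17 and CLDN25 had 0 counts in all libraries, CLDN14 and CLDN24 had at most 3, and CLDN5, CLDN16, CLDN18 and CLDN34 had at most 12.

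**Figure D2:**
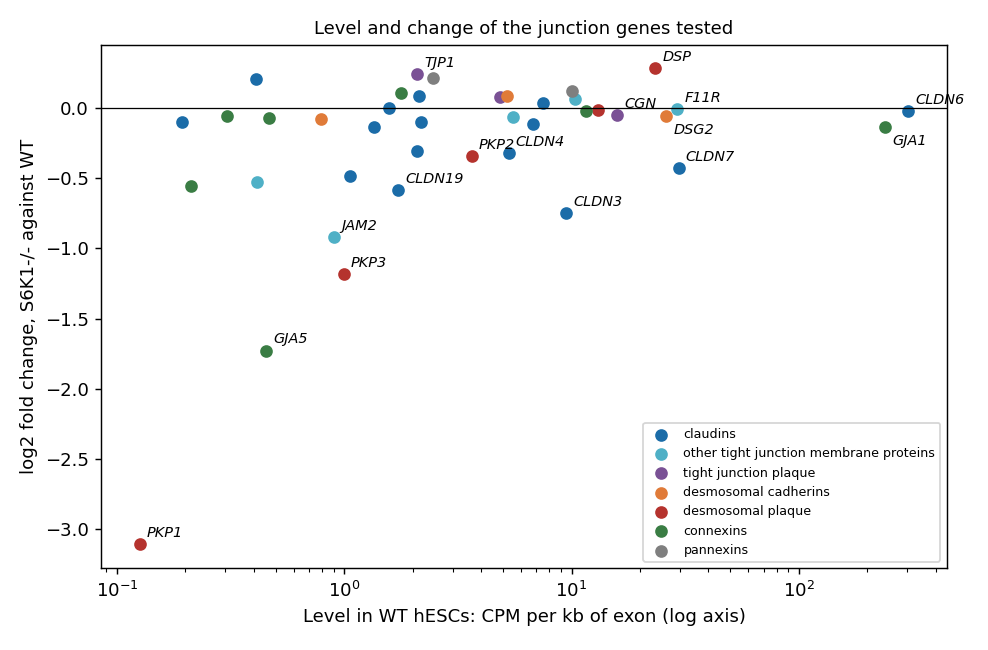
Log2 fold change (S6K1-/- minus WT, vertical axis) against the WT level in CPM per kilobase of exon (horizontal log axis) for the tested junction genes reported here, 1 point per gene, coloured by family. CLDN6 and GJA1, at 303 and 240.4 CPM per kilobase, lie near 0, and the called genes lie at 29.6 CPM per kilobase or lower.

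Among the other membrane proteins of tight junctions, JAM2 fell and the remaining 4 did not pass. JAM2, an adhesion molecule of the immunoglobulin superfamily best known from endothelium, had 129, 146 and 113 counts in WT and 68, 65 and 63 in S6K1-/- libraries. The S6K1-/- libraries lay close together and well below WT, at 2.83 ± 0.104 CPM against 5.36 ± 0.540 (SD, n = 3). JAM2 fell by 0.92 on the log2 scale (SE 0.125, adjusted p = 0.000116 in edgeR's quasi-likelihood test), and without S6K1-/- replicate 2 the adjusted p was 0.00108 at a log2 fold change of -0.89. F11R (JAM-A), the most abundant of this group per length, had 3557, 3706 and 3427 counts in WT and 3329, 3713 and 3175 in S6K1-/- libraries, or 29.2 ± 0.469 and 29.1 ± 1.35 CPM per kilobase (SD, n = 3). Its log2 fold change was -0.01 (95% CI -0.10 to 0.08, adjusted p = 0.956), with overlapping groups, and its sign turns with DESeq2 size factors. Another protein-coding gene model on the same strand shares 36.6% of its exonic bases, so that its level is uncertain. JAM3 gave 0.07 (adjusted p = 0.334) and MARVELD3 -0.07 (adjusted p = 0.462). Exons of NCAPD3 on the opposite strand cover 35.6% of the exonic bases of JAM3. MARVELD2 (tricellulin), which seals tricellular contacts, had 66, 52 and 43 counts in WT and 34, 44 and 29 in S6K1-/- libraries, a log2 fold change of -0.53 (adjusted p = 0.0948). As counted, JAM-A made up 62.9% of the summed level per length of this group in WT and JAM2 1.94%.

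The scaffold proteins on the inner side of tight junctions gave 0 of 4 past either threshold. CGN (cingulin), which links tight junctions to actomyosin, was the most abundant per length, with 2662, 2528 and 2395 counts in WT and 2426, 2460 and 2142 in S6K1-/- libraries. These values overlapped after normalisation, at 15.9 ± 0.556 and 15.3 ± 0.406 CPM per kilobase (log2 fold change -0.05, 95% CI -0.14 to 0.04, adjusted p = 0.496). TJP1 (ZO-1), the scaffold that binds claudin ends, had 547, 739 and 432 counts in WT and 766, 416 and 753 in S6K1-/- libraries. Its highest and lowest normalised values differed by 1.62-fold within WT and by 1.99-fold within S6K1-/- hESCs, so that the groups overlapped (log2 fold change 0.24, 95% CI -0.18 to 0.66, adjusted p = 0.482). Leaving out a library moved this value between 0.08 (without S6K1-/- replicate 3) and 0.50 (without S6K1-/- replicate 2, adjusted p = 0.0316), and it was 0.45 without WT replicate 2, 0.10 without WT replicate 3 and 0.12 without S6K1-/- replicate 1. TJP3 (ZO-3) gave 0.08 (adjusted p = 0.47). The interval for TJP1 is wide and holds 0, so that neither a change within it nor its absence was shown.

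**Figure D3:**
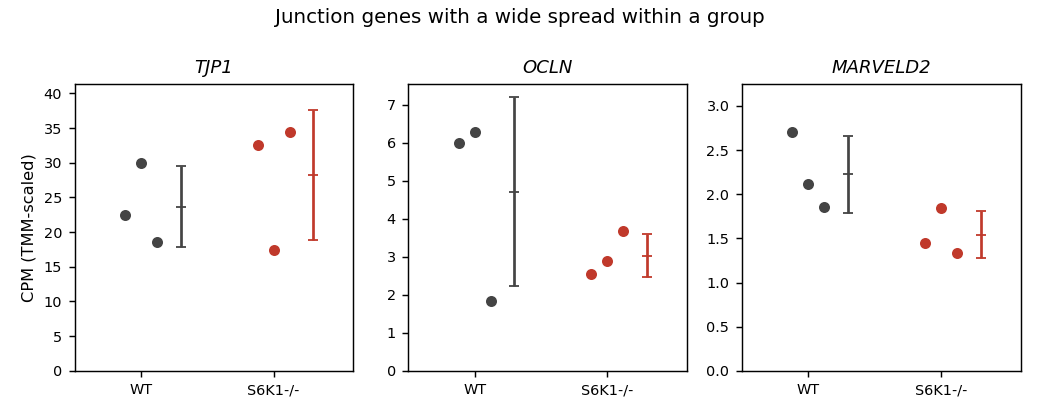
Normalised level in CPM (vertical axis, 1 panel per gene) of TJP1, the partner OCLN and MARVELD2, with 1 point per library and the group mean with its SD as a bar. TJP1 spreads 1.62-fold within WT and 1.99-fold within S6K1-/- hESCs, and 1 WT library of OCLN, with 43 counts, lies below all S6K1-/- libraries.

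Of 7 desmosomal cadherins, DSG2, DSC2 and DSC3 were tested and 0 passed an adjusted p of 0.05. DSG2, the desmoglein of simple epithelia, had 5998, 5923 and 5964 counts in WT and 5776, 5516 and 5202 in S6K1-/- libraries. The groups overlapped after normalisation, at 26.1 ± 0.846 and 25.1 ± 0.822 CPM per kilobase (log2 fold change -0.06, 95% CI -0.15 to 0.03, adjusted p = 0.43). It made up 81.2% of the summed cadherin level per length in WT and 79.8% in S6K1-/- hESCs. DSC2, its usual partner, gave 0.09 (adjusted p = 0.188) with S6K1-/- values above all WT values, and DSC3 gave -0.08 (adjusted p = 0.691). DSC1, DSG1 and DSG4, genes of stratified skin, had at most 3 counts in any library, and DSG3 had at most 6.

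Of the 5 plaque genes, PKP3 and PKP1 fell, PKP2 lay between the thresholds and was lower, DSP lay between them and was higher, and PKP4 did not pass. Among all tested genes 2.54% were lower at 0.001, and 8.31% were lower and 5.47% higher at 0.05, and PKP1 was tested mainly through its WT counts. PKP3, a plakophilin of simple and stratified epithelia, had 99, 95 and 79 counts in WT and 42, 29 and 44 in S6K1-/- libraries. The groups did not overlap, at 3.77 ± 0.341 and 1.67 ± 0.417 CPM (SD, n = 3), and PKP3 fell by 1.18 on the log2 scale (SE 0.179, adjusted p = 0.000315 in edgeR's quasi-likelihood test). It passed in 2 of the 6 fits that left out a library: the adjusted p was 0.00193 without WT replicate 1, 0.00107 without WT replicate 2, 0.00117 without S6K1-/- replicate 1 and 0.00154 without S6K1-/- replicate 2.

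PKP1, a plakophilin typical of the upper layers of skin, was near the limit of detection, with 26, 20 and 11 counts in WT and 1, 4 and 1 in S6K1-/- libraries. WT values were 0.784 ± 0.298 CPM and S6K1-/- values 0.0851 ± 0.0708 (SD, n = 3), without overlap. PKP1 fell by 3.11 on the log2 scale (95% CI -4.23 to -1.99, adjusted p = 0.000789 in edgeR's quasi-likelihood test). Of the 6 fits with a library removed, 1 kept the call, namely the fit lacking WT replicate 3. Removing WT replicate 1 or 2 gave adjusted p values of 0.00522 and 0.00237, and removing S6K1-/- replicate 1, 2 or 3 gave 0.0061, 0.00147 and 0.00746.

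PKP2, a plakophilin of simple epithelia and heart muscle, had 935, 880 and 886 counts in WT and 701, 649 and 693 in S6K1-/- libraries. The groups did not overlap, and the log2 fold change was -0.34 (SE 0.063, adjusted p = 0.0017 in edgeR's quasi-likelihood test, 0.000913 in DESeq2). PKP4, which also binds classical cadherin complexes, was at 125.1 ± 4.10 and 124 ± 1.91 CPM (log2 fold change -0.01, 95% CI -0.10 to 0.07). DSP (desmoplakin), the link to intermediate filaments, had 8266, 7178 and 7487 counts in WT and 9672, 9062 and 8068 in S6K1-/- libraries, and after normalisation every S6K1-/- value lay above every WT value. Its log2 fold change was 0.28 (SE 0.055, adjusted p = 0.00254 in edgeR's quasi-likelihood test), which passed 0.001 with the replicate number as a block (0.000605) and in DESeq2 (6.76e-06). Summed plakophilins were at 167 ± 4.97 CPM in WT and 155.3 ± 3.83 in S6K1-/- hESCs, while DSP made up 56.6 ± 1.36% and 63.5 ± 1.22% of the plaque level per length.

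**Figure D4:**
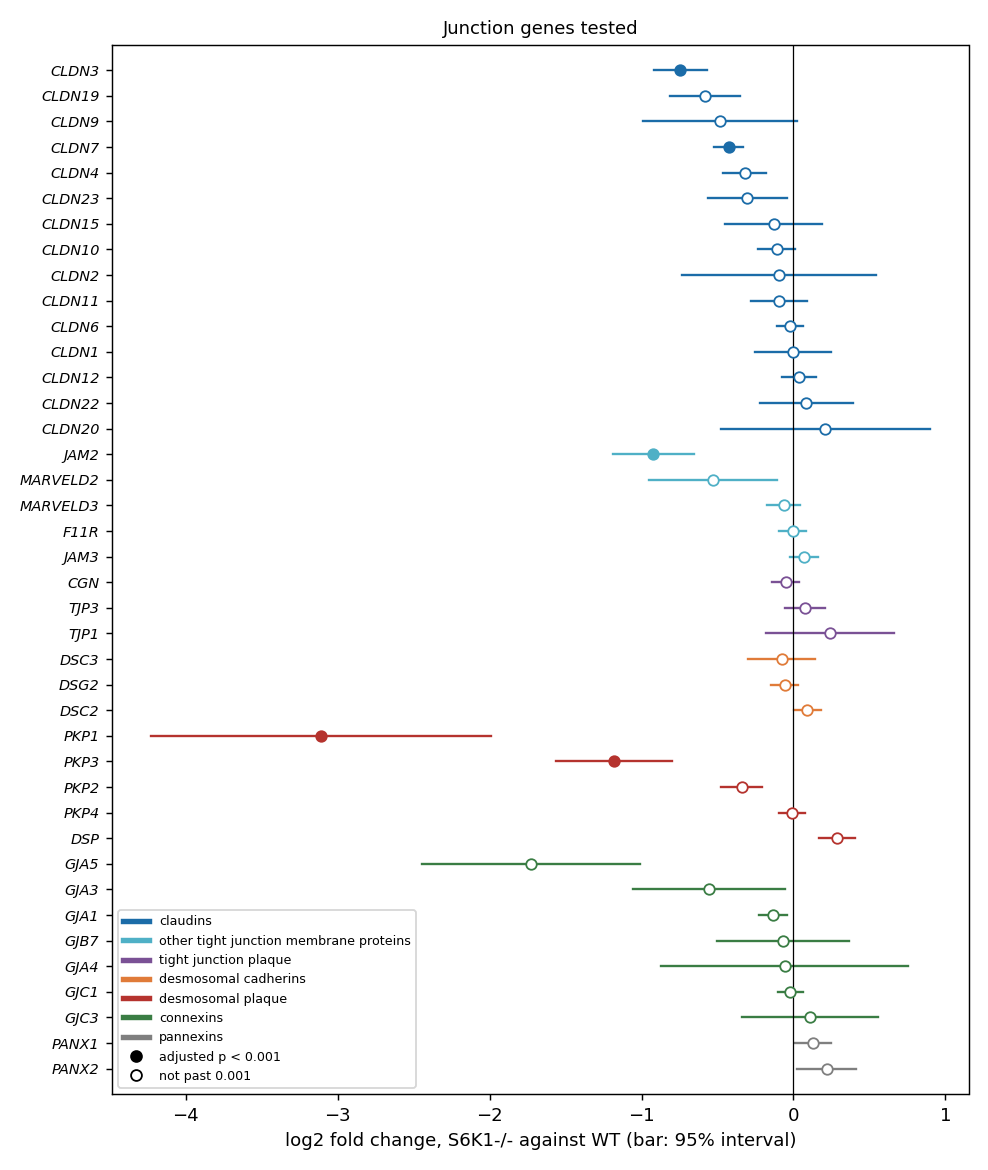
Log2 fold change (S6K1-/- minus WT, horizontal axis) with its 95% confidence interval for the tested junction genes reported here, ordered by family. CLDN3, CLDN7, JAM2, PKP1 and PKP3 pass an adjusted p of 0.001, all to the left of 0.

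Connexins held 17 symbols, of which 7 were tested and 0 passed 0.001. GJA1 (connexin 43), the main connexin of hESCs, had 19311, 19829 and 19784 counts in WT and 16984, 17718 and 16750 in S6K1-/- libraries. It accounted for 94% of the summed connexin level per length in WT and 93.6% in S6K1-/- hESCs, at 240.4 ± 9.01 and 218.9 ± 6.87 CPM per kilobase (SD, n = 3). The groups did not overlap, and the log2 fold change was -0.13 (95% CI -0.23 to -0.04, adjusted p = 0.0532 in edgeR's quasi-likelihood test), or 0.0347 with the replicate number as a block. GJA5 (connexin 40), a connexin of atrium and arteries, had 37, 40 and 31 counts in WT and 19, 5 and 7 in S6K1-/- libraries. Its S6K1-/- values were all lower but spread widely, and the log2 fold change was -1.73 (SE 0.335, adjusted p = 0.00249 in edgeR's quasi-likelihood test). Without S6K1-/- replicate 1 it passed, at -2.48 (adjusted p = 0.000153). An antisense transcript covers 20.3% of its exonic bases, and whether counting used strand was not given.

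GJC1 (connexin 45) came after GJA1 in level, at 11.6 ± 0.192 CPM per kilobase in WT and 11.5 ± 0.101 in S6K1-/- hESCs (log2 fold change -0.02, 95% CI -0.10 to 0.06). GJA3, a lens connexin, gave -0.56 (adjusted p = 0.14) without overlap at a level of 1.11 ± 0.143 CPM in WT, and GJA4, GJB7 and GJC3 gave -0.06, -0.07 and 0.11. The summed connexin level was 925 ± 30.1 CPM in WT and 849.2 ± 22.9 in S6K1-/- hESCs. Of these sums GJA1 held 816 and 743.2 CPM, and GJC1 held 101.3 and 99.88 CPM. Among the 10 connexins not tested, GJA9 and GJB1 had 0 counts in all libraries, GJA10 and GJB6 had at most 3, and GJB2 and GJB5 had at most 11. Another protein-coding gene model on the same strand shares 93.5% of the exonic bases of GJA9, so that its 0 counts may reflect reads that were not assigned.

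Both tested pannexins had higher values in all S6K1-/- libraries than in any WT library, as had 14% of all tested genes, and 0 passed an adjusted p of 0.05. PANX1, a widely expressed ATP-release channel and the most abundant per length, had 718, 676 and 672 counts in WT and 749, 725 and 688 in S6K1-/- libraries (log2 fold change 0.13, 95% CI 0.0071 to 0.25, adjusted p = 0.162). PANX2 had 176, 195 and 178 counts against 222, 195 and 195 (0.22, adjusted p = 0.137). PANX3, a pannexin of bone and cartilage, had 0 counts throughout WT but 10, 8 and 4 in S6K1-/- libraries. It was not tested at these counts, and its mean was at least 2.52-fold higher than a floor of 3 counts per library.

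Other junction proteins outside these families were examined as a list of 38 partners, of which 34 were tested. At the threshold 2 rose and 0 fell, a share of 5.88% against 3.96% of all tested genes in either direction and 1.42% higher. At an adjusted p of 0.05, 7 were lower and 2 higher, or 20.6% and 5.88% against 8.31% and 5.47% of all tested genes. NECTIN3, an immunoglobulin-like adhesion protein of adherens junctions, had 631, 634 and 622 counts in WT and 944, 910 and 877 in S6K1-/- libraries, and rose by 0.59 on the log2 scale (SE 0.053, adjusted p = 1.68e-06 in edgeR's quasi-likelihood test). AMOTL1, an angiomotin of junctions and Hippo signalling, rose by 0.34 (SE 0.048, adjusted p = 0.000166 in edgeR's quasi-likelihood test), from 106.5 ± 5.66 to 134.9 ± 6.54 CPM. Its adjusted p was 0.00162 without S6K1-/- replicate 1 and 0.00103 without S6K1-/- replicate 2, and NECTIN3 passed in all 6 such fits. Between the thresholds were, among others, PPL (periplakin) at -0.30 and TMEM47 at -0.34, both lower. JUP (plakoglobin), which joins desmosomal cadherins to the plaque, had 2884, 3097 and 2752 counts in WT and 2691, 2722 and 2264 in S6K1-/- libraries, a log2 fold change of -0.13 (adjusted p = 0.0866). OCLN (occludin) had 146, 155 and 43 counts in WT and 60, 69 and 80 in S6K1-/- libraries. WT replicate 3 thus lay below all S6K1-/- libraries, and the log2 fold change was -0.65 (adjusted p = 0.197), or -1.02 (adjusted p = 0.000638) without that library.

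A list called regulators here held 21 genes, both transcription or splicing factors and surface proteins such as EPCAM, CDH1 and CDH2. Of the 21 genes, 18 were tested, 1 fell and 0 rose, a share of 5.56% against 3.96% of all tested genes in either direction and 2.54% lower. The gene that fell, EPCAM, is a surface protein. At an adjusted p of 0.05, 3 were lower and 1 higher, or 16.7% and 5.56% against 8.31% and 5.47% of all tested genes. EPCAM, an epithelial adhesion protein that binds and stabilises CLDN7, had 6912, 7215 and 6541 counts in WT and 5312, 5357 and 5340 in S6K1-/- libraries. Its groups stood apart, and it fell by 0.31 on the log2 scale (SE 0.044, adjusted p = 0.000176 in edgeR's quasi-likelihood test). Removing a library kept the call in 2 of 6 fits, whereas removing WT replicate 1 or 3 gave adjusted p values of 0.00103 and 0.00121, and removing S6K1-/- replicate 1 or 2 gave 0.00233 and 0.00189. GRHL2, a transcription factor of epithelial junction genes, gave 0.15 (adjusted p = 0.0514) and CDH1 (E-cadherin) gave -0.09 (95% CI -0.17 to -0.0062, adjusted p = 0.157). CDH2 (N-cadherin) gave 0.17 (adjusted p = 0.0189), while ELF3 gave -0.51 (adjusted p = 0.0329) and ST14 -0.16 (adjusted p = 0.0325), all in edgeR's quasi-likelihood test.

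**Figure D5:**
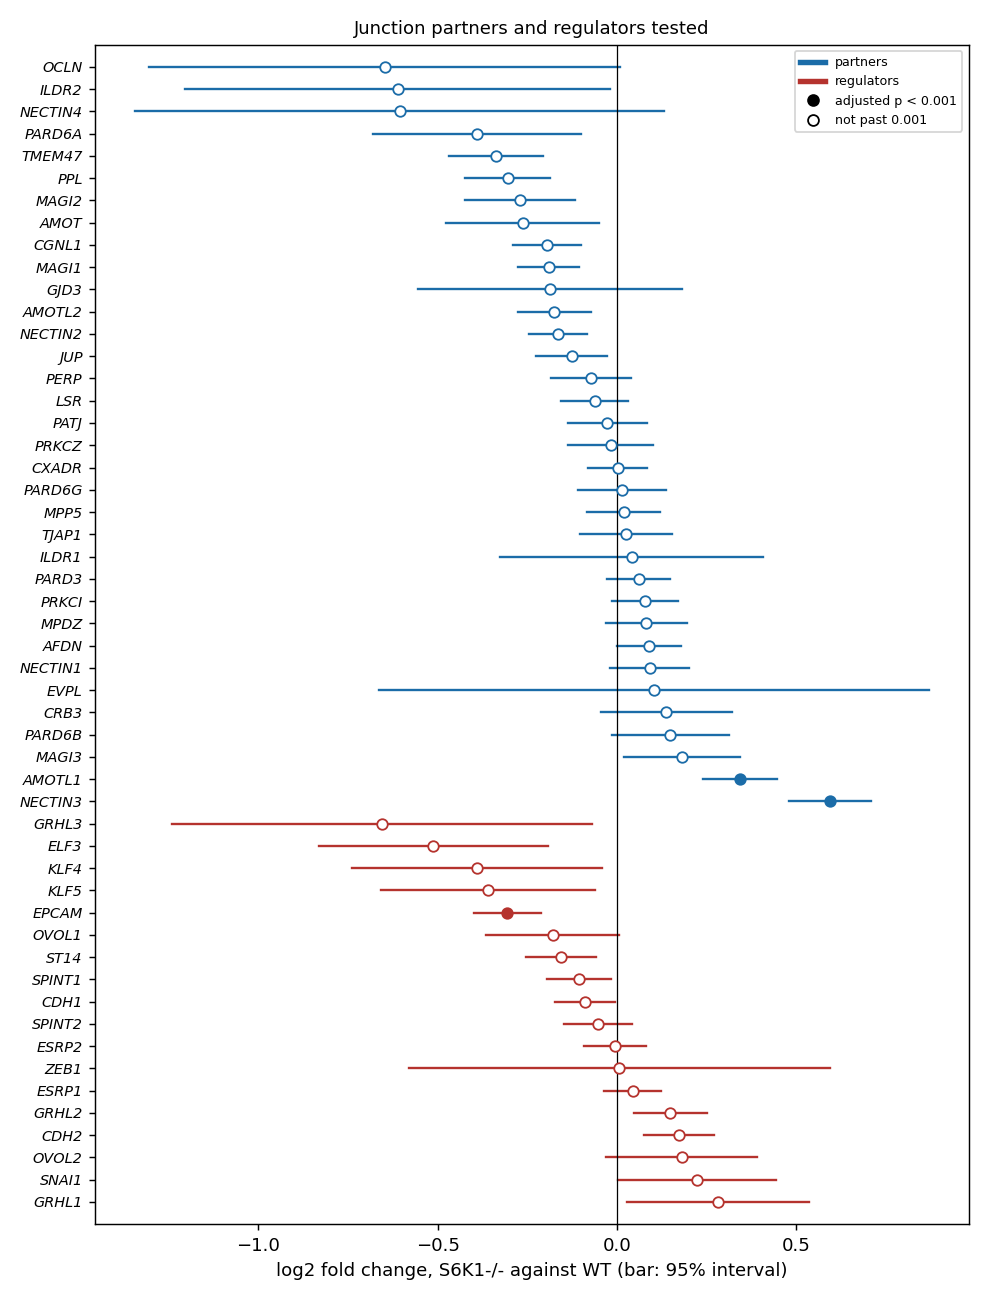
Log2 fold change (S6K1-/- minus WT, horizontal axis) with its 95% confidence interval for the 34 tested junction partners and 18 tested regulators, with filled symbols for those past an adjusted p of 0.001. NECTIN3 and AMOTL1 rose, EPCAM fell, and OCLN, at -0.65, is an open symbol with a wide interval.

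Markers of other cell types were read beside the lower junction genes. Of 12 markers of amnion, trophoblast and surface ectoderm, 4 were tested and 0 passed 0.001, with summed levels of 24.04 to 25.9 CPM in WT and 20.6 to 22.8 in S6K1-/- hESCs, and HAND1 and KRT5 at 0 counts. KRT7, an epithelial keratin of this list, had a log2 fold change of -0.82 (adjusted p = 0.00103). Of 6 endoderm markers, 5 were tested and FOXA1 fell, with sums of 23.5 to 27.2 CPM in WT and 18.5 to 19.2 in S6K1-/- hESCs, and SOX17 at 3 counts or fewer. FOXA2 (log2 fold change -0.88, adjusted p = 0.00108) and CXCR4 (-1.26, adjusted p = 0.0235) lay between the thresholds in edgeR's quasi-likelihood test and were lower. Sums for mesoderm were 15.4 to 16.1 and 16.7 to 18.0 CPM, with 0 of 3 tested markers past the threshold. Sums for neuroectoderm were 5.17 to 5.59 and 7.91 to 8.99 CPM, with PAX6 higher, and those for mesenchyme 563.9 to 584.1 and 495.5 to 518.7 CPM, with COL1A1 and PDGFRB lower (log2 fold changes -1.79 and -1.34). SOX1 of neuroectoderm was also higher (1.29, adjusted p = 0.0174 in edgeR's quasi-likelihood test), and it passed the count filter mainly through the S6K1-/- group. The summed level of the 8 undifferentiated stem cell markers was 4941 to 5060 CPM in WT and 4624 to 4636 in S6K1-/- hESCs. The sums of the stem cell, amnion, endoderm and mesenchyme markers were thus lower in S6K1-/- hESCs without overlap, like the junction genes that fell, and those of mesoderm and neuroectoderm were higher without overlap. Single genes carried much of these sums. In the stem cell list DNMT3B was at 1410 CPM in WT and 1105 in S6K1-/- hESCs while LIN28A was at 1169 and 1213, and in the mesenchyme list THY1 held 486.9 and 479.3 CPM (log2 fold change -0.02). COL3A1, TWIST1 and LUM of the mesenchyme list had 3 counts or fewer in every library, so that its sum is mainly a level of THY1. MIXL1 held most of the mesoderm sum and PAX6 most of the neuroectoderm sum. In the list of amnion, trophoblast and surface ectoderm, GABRP held most of the sum, at 15.28 and 15 CPM (log2 fold change -0.03). KRT7 of that list was at 5.023 CPM in WT and 2.835 in S6K1-/- hESCs. Within their lists HHEX of endoderm was higher (0.36, adjusted p = 0.0646), EOMES of mesoderm lower (-0.74, adjusted p = 0.138) and OTX1 of neuroectoderm, not tested, lower (13, 14 and 7 counts against 2, 1 and 2), each without overlap and against its list's sum. The part of these markers in the result was not tested.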

How the data were processed

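Bulk RNA sequencing of H7 hESCs (3 WT and 3 S6K1-/- libraries) was analysed. Libraries were made with a stranded mRNA kit. The authors deposited whole-number counts per gene without normalization. Per the submitters' processing notes and the methods, reads were trimmed with Trim Galore 0.6.5, aligned to GRCh38 with Bowtie2 2.4.5 and counted with featureCounts. Reads that span a splice junction may be missing, because Bowtie2 aligns without introns. The annotation release and strand setting are not given in the sources used here. A deposited table of the authors' own DESeq2 1.37.4 comparison (mean, fold change, error, statistic and p-values) was not used.

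Symbols passing filterByExpr (minimum count 10, minimum total 15) were tested with edgeR 4.0.16 in R 4.3.3, by the quasi-likelihood F test after TMM normalization with genotype as the only factor, and p-values were adjusted by Benjamini-Hochberg over all 19521 genes. The threshold was 0.001, and the common dispersion was 0.00216. Standard errors are the log2 fold change over the square root of F. On simulated counts of this comparison (19240 genes), 184 of 200 genes changed by 1 on the log2 scale were called and 0 unchanged genes were. The changed genes had a mean of at least 1 CPM, and counts followed the dispersion trend without further scatter between genes. Smaller changes, and changes in genes below that level, were not simulated. CPM are counts scaled to TMM-normalised library sizes. Levels per kilobase used the union of exons in the GENCODE 44 annotation, in which 37105 symbols and all 65 junction genes matched, and 42 of 65 had a promoter in the sequence table. The floor was 3 counts per library and covers counting error only.

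The members and the lists of partners, regulators and markers were chosen with earlier results of these data known, and the GC box was added to the motifs after the promoters were seen. Values per library are given for members with an adjusted p under 0.05 and for the most abundant member per length of each family, and others were described after their values were seen. From the lists, genes past the threshold and OCLN, JUP, GRHL2 and CDH1 are named by rule. Some members are counted but not reported by name or value here. The alternatives were DESeq2 size factors, the DESeq2 1.42.0 Wald test, no filter or a stricter one, the replicate number as a block, an adjusted p of 0.05 and leaving out each library.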

Additional observations from a re-analysis of the deposited data

How the results depend on the processing

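CLDN3 and CLDN7 were called under every alternative run, and JAM2 under all but the fit without S6K1-/- replicate 2. PKP1 lost its call in the DESeq2 Wald test and in 5 fits that left out a library, and was not tested where at least 10 counts were required in every library. The cause was not tested. Junction genes past the threshold and lower numbered 5, and 9 with no filter on low counts, 9 at an adjusted p of 0.05 and 2 to 5 when leaving out a library. Those higher numbered 0, and 1 in the DESeq2 Wald test (DSP), 2 with no filter (DSP and PANX3), 1 with the replicate block (DSP) and 1 at an adjusted p of 0.05. Over all genes 496 were lower, and 982 with no filter, 1622 at an adjusted p of 0.05 and 313 to 445 when leaving out a library, the fewest without S6K1-/- replicate 3. Those higher numbered 278, and 591, 1067 and 175 to 235, with 175 and 179 without S6K1-/- replicates 1 and 2. Partners that fell numbered 0, and 1 in the DESeq2 Wald test, 6 with no filter, 1 with the replicate block, 7 at an adjusted p of 0.05 and 0 to 1 when leaving out a library, and partners that rose numbered 1 to 2 when leaving out a library. Regulators that fell numbered 1, and 3 at an adjusted p of 0.05 and 0 to 1 when leaving out a library, and those that rose numbered 1 at an adjusted p of 0.05. The log2 fold change of F11R, -0.01, turned to 0.0012 with DESeq2 size factors and 0.0039 in the DESeq2 Wald test, and ran from -0.0415 to 0.024 when leaving out a library. Deviations of same-numbered libraries of the 2 groups had correlations of 0.018, 0.0017 and 0.0316 across genes. These values cannot settle whether such libraries shared a culture or a batch. With the replicate block 6 junction genes were called in place of 5. The 24 genes under the count filter were not compared in the main fit. Those with any counts entered the DESeq2 Wald test and the fit with no filter, each with 58 junction genes. PKP1 had 1 to 4 counts in its S6K1-/- libraries.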
